A study of Glycine max with 6 samples.

Results

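Receptor kinases at the start and at the limit of nodule formation were examined in soybean nodules grown at high and low phosphate. The 4 genes were taken by their identifiers, namely the Nod factor receptor genes NFR1α (Glyma.02G270800), NFR1β (Glyma.14G046200) and NFR5α (Glyma.11G063100), and the autoregulation receptor gene NARK (Glyma.12G040000). They are 4 genes set beside the 39712 genes listed in at least 1 library. Of the 4, 3 were listed and 2 were high enough to be tested.

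The plants were of soybean genotype YC03-3, inoculated with rhizobium strain USDA110 and grown in hydroponics with KH2PO4 at 500 (HP) or 25 (LP), a unit that the sample labels give as mM and the methods of the study as μM. Both treatments shared the genotype, the rhizobium and the other salts of the solution, nitrate and ammonium included. Phosphate was given as a potassium salt and no potassium make-up is stated in the methods, so potassium supply differed along with phosphate and cannot be told apart from it. On day 25, nodules over 3 mm were harvested, those of 2 plants were pooled, and 1 library was made per pool, with 3 at HP and 3 at LP. Smaller nodules were thus left out, and a library is the mean of a pool.

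Levels are FPKM, the fragments assigned to a gene scaled to the length of its model and to the total of the library. The totals lay between 17716117 and 18909026 fragments and were found from the FPKM values themselves, which are whole numbers of fragments divided by whole gene lengths and scaled to the library. At this depth, 1 FPKM of NFR1α stood for 45.9 to 49.0 fragments and 1 FPKM of NARK for 59.6 to 63.6. As a partial check of the tissue, 4 genes described as nodulins were found, of which early nodulin-70 (Glyma.18G018900) had a mean FPKM of 125 ± 32.0 (HP) and 36.0 ± 13.7 (LP, SD over 3 libraries each). The leghemoglobin genes were not matched to identifiers here.

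Nod factors are lipochitooligosaccharides released by rhizobia. In the legume Lotus japonicus they are perceived at the root surface by a pair of LysM receptor kinases, NFR1 with an active kinase domain and NFR5 without one, and this perception starts calcium signalling, infection and nodule organogenesis. NARK is a leucine-rich repeat receptor kinase of the CLAVATA1 type that acts in the shoot, where it perceives CLE peptides made in nodulating roots and limits the number of further nodules. Soybean is an ancient polyploid and holds NFR1 as the copies NFR1α and NFR1β.

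Of the 3 Nod factor receptor genes examined, NFR1α had the highest listed level in both treatments. It lies on chromosome 2 from 45475466 to 45480930 on the plus strand (Wm82.a2.v1), with a model length of 2590 bases. Its FPKM in the HP libraries was 2.02, 2.76 and 4.73, from 95, 128 and 229 fragments. In the LP libraries it was 1.5, 2.49 and 1.74 FPKM, from 69, 121 and 85 fragments. HP replicate 3 stood above all other libraries, while LP replicate 2 lay between HP replicates 1 and 2, so the treatments overlapped.

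The mean level of NFR1α was 3.17 ± 1.40 FPKM under HP and 1.91 ± 0.513 FPKM under LP (SD, n = 3 each). The LP to HP change was -0.65 on the log2 scale (SE 0.32, limma adjusted p = 0.175), which did not pass the test. The 95% interval of this fold change ran from -1.39 to 0.10, so a fall to 0.381 of the HP level and a slight rise to 1.07 were both within it. Without HP replicate 3 the log2 fold change was -0.32, and without HP replicate 1 it was -0.92, with adjusted p of 0.429 and 0.0892 from limma. The size of the difference thus rested on which HP libraries were used.

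**Figure D1:**
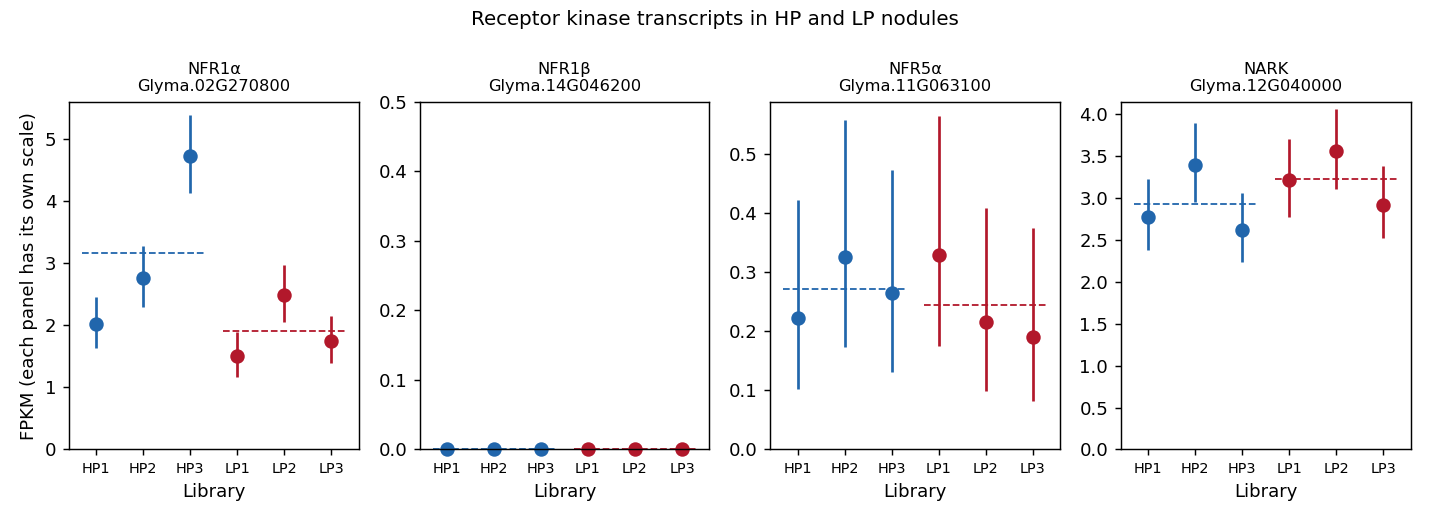
FPKM (vertical axis, a separate scale in each panel) of the 4 receptor kinase genes in each HP (blue) and LP (red) library. Points are libraries, vertical lines are 95% Poisson intervals of the fragments behind them, and dashed lines are treatment means. For NFR1α, HP replicate 3 at 4.73 FPKM stands above the other libraries (1.5 to 2.76 FPKM). NFR1β, which was not listed, is drawn at 0 in every library, and for NFR5α and NARK the treatments overlap.

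The HP libraries were spread widely for NFR1α. The exact Poisson intervals of 95% were 76.9 to 116 fragments in HP replicate 1, 107 to 152 in HP replicate 2 and 200 to 261 in HP replicate 3, and the last does not meet either of the others. Separate pools of plants usually differ by more than such intervals, which cover counting error only, and fragments amplified by PCR are not independent molecules. The SD of NFR1α within a treatment was 0.495 on the log2 scale, against a median of 0.213 for the 18169 tested genes with a mean of 1 to 10 FPKM. Of those genes, 91.0% had a smaller SD. NARK, at a similar level, had an SD of 0.166, and 33.0% of the same genes lay below it.

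**Figure D2:**
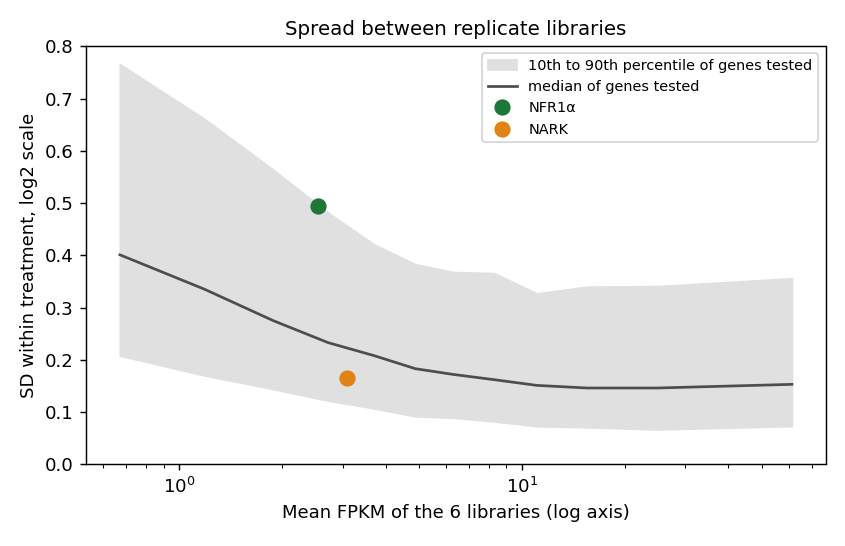
SD within a treatment on the log2 scale (vertical axis) against mean FPKM of the 6 libraries (horizontal log axis). The line is the median and the band the 10th to 90th percentile of tested genes in 12 groups of level. NFR1α (SD 0.495) lies at the upper edge of the band and NARK (SD 0.166) below the median.

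The 4 nodulin genes did not share 1 order of the HP libraries. Early nodulin-70 was highest in HP replicate 3, as NFR1α was, for both of its genes, of which Glyma.18G018900 was at 113, 100 and 161 FPKM in the HP libraries and Glyma.11G238500 at 86.4, 62.2 and 104 FPKM. By contrast, early nodulin-12A (Glyma.11G155000) was highest in HP replicate 2, at 31.3, 75.5 and 32.9 FPKM, and a nodulin-26-like gene (Glyma.15G087300) was lowest in HP replicate 3, at 2.47, 1.09 and 0.726 FPKM. These genes, like the suberin and xylem genes described next, are known by name only through the study's list of genes that differed on these samples. Their counts at LP are therefore fixed by that choice and are not to be read against the 7.73% of all genes tested that were called. The nodulins, with 3 lower and 1 higher at LP, had a summed level of 233 to 299 FPKM at HP and 180 to 214 FPKM at LP. This sum joined opposite changes. Mean FPKM at HP and LP was 125 and 36.0 for Glyma.18G018900, 84.3 and 20.8 for Glyma.11G238500, and 1.43 and 0.214 for Glyma.15G087300. For Glyma.11G155000 the mean was 46.6 FPKM at HP and 136 FPKM at LP. Both genes described by a suberin enzyme were higher at LP (summed level 1.34 to 1.57 FPKM at HP and 2.88 to 7.27 at LP), and of 3 xylem genes 2 were higher and 1 was lower (1.30 to 1.84 and 1.76 to 2.11 FPKM). The part of these genes in the NFR1α values was not tested. In such bulk libraries, fewer cells of a type and less RNA per cell cannot be told apart.

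NFR1β (Glyma.14G046200) had no row in any of the 6 libraries and was therefore taken as 0 FPKM throughout. Only genes above 0 are listed, so a gene without fragments and a gene left out of the annotation look alike. Genes as low as 1 fragment were listed beside it, such as Glyma.14G046300 with 5, 1 and 4 fragments at HP and 5, 4 and 2 at LP. Between Glyma.14G046100 and Glyma.14G046300, a stretch of 10407 bases on chromosome 14 held no listed gene. A limit can be set only if NFR1β was in the annotation and its reads could be counted, which is not known. In that case, a floor of 3 fragments over a group and the model length of NFR1α were assumed. NFR1β would then lie below 0.0211 FPKM at HP and 0.0209 FPKM at LP, and NFR1α at least 151-fold and 91.7-fold above it. If NFR1β was not counted, its missing row sets no limit. No difference between LP and HP could be tested for NFR1β. The copies are close paralogs, and how reads that fit both were assigned is not given in the sources used here, so the share of each copy is uncertain.

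NFR5α, a copy of the partner receptor, was found at trace level in every library. RefSeq also names an NFR5B on chromosome 1, which was not examined, so the values of NFR5α do not give the whole level of NFR5. NFR5α lies on chromosome 11 from 4779592 to 4781813 on the plus strand. Its model length of 2222 bases equals its whole span, as for a gene without introns. Its level was 0.223, 0.326 and 0.265 FPKM in the HP libraries and 0.330, 0.216 and 0.190 FPKM in the LP libraries. Behind these values stood 9, 13 and 11 fragments at HP and 13, 9 and 8 at LP. The highest value of all was LP replicate 1 and the lowest LP replicate 3, so the HP range lay inside the LP range.

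With a mean of 0.271 ± 0.0521 FPKM under HP and 0.245 ± 0.0745 FPKM under LP (SD, n = 3 each), NFR5α was below the minimum of 0.5 FPKM in 3 libraries that a gene needed to be tested. Fitted without that minimum, NFR5α had an LP to HP difference of -0.12 on the log2 scale (SE 0.29, limma adjusted p = 0.809) with a 95% interval from -0.79 to 0.56. This value was 0.02 after median-of-ratios rescaling, so it had no set direction. The 33 fragments at HP and 30 at LP give a depth-scaled ratio of 0.899, for which counting error alone spans 0.530 to 1.52, and a difference smaller than this was not detectable at this depth.

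NARK, the autoregulation receptor, was listed in all nodule libraries at a steady level. It lies on chromosome 12 from 2881839 to 2885669 on the minus strand, with a model length of 3364 bases. Its level was 2.78, 3.40 and 2.62 FPKM in the HP libraries, from 170, 205 and 165 fragments. In the LP libraries it was 3.22, 3.56 and 2.92 FPKM, from 192, 225 and 186 fragments. LP replicate 2 was the highest library and HP replicate 3 the lowest, and HP replicate 2 lay above LP replicates 1 and 3.

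The mean level of NARK was 2.93 ± 0.410 FPKM under HP and 3.23 ± 0.318 FPKM under LP (SD, n = 3 each). The LP to HP change of 0.14 on the log2 scale (SE 0.16, limma adjusted p = 0.545) did not pass the test. The 95% interval from -0.23 to 0.51 corresponds to 0.854 to 1.42 times the HP level, so a 2-fold change in either direction lay outside it. Of the 4 genes, NARK was the one for which the data set the narrowest limits.

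In total, none of the 4 receptor kinase genes passed the test at LP, with 2 of 4 tested, against 7.73% of the 31181 genes tested (2411 genes that differed 2-fold or more with an adjusted p up to 0.05), with 3.34% higher and 4.39% lower. This balance turned under rescaling, with 1404 higher and 676 lower after median-of-ratios and 1298 higher and 806 lower after quantile normalization. By the adjusted p alone, 25.7% of all genes tested passed and again none of the 2. In limma, 0 of the 2 had an unadjusted p under 0.05, and the same held in limma-voom on the recovered fragments. For neither of the 2 were LP and HP values separate, which was the case for 44.5% of the genes tested. The median log2 fold change of all genes tested was -0.18. After median-of-ratios rescaling, which moved fold changes up by 0.182, they were -0.47 for NFR1α and 0.32 for NARK. Of the genes tested, 13.7% had a lower fold change than NFR1α and 77.5% a lower one than NARK. With 2 genes tested, this count says little beside the background.

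Among the listed genes, the order of the mean levels was NARK, NFR1α and NFR5α at LP, while at HP NFR1α and NARK did not differ beyond their spread. NFR1β was not listed and could not be placed in this order. FPKM is scaled to gene length, so these levels can be set beside each other. In the LP libraries, every NARK value (2.92 to 3.56 FPKM) was above every NFR1α value (1.5 to 2.49 FPKM). In all 6 libraries NFR5α was the lowest of the listed members. Over the 6 libraries, 46.9% of the listed genes had a lower mean than NARK, 43.1% a lower mean than NFR1α and 16.4% a lower mean than NFR5α.

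Ratios of plain FPKM within a library do not depend on how libraries are scaled, and they are listed here. To ask whether the receptors changed differently, ratios of FPKM + 0.1 were tested, which depend on the scaling to a degree. The ratio of NFR1α to NARK was 0.726, 0.811 and 1.80 in the HP libraries and 0.467, 0.698 and 0.594 in the LP libraries. All LP ratios were below all HP ratios, a difference of -0.79 on the log2 scale of FPKM + 0.1 (exact two-sided permutation test, p = 0.10, n = 3 each). This is the smallest p that 3 against 3 libraries can give, and it was 0.30 after Benjamini-Hochberg adjustment over the 3 pairs compared. Without HP replicate 3 the difference was -0.39.

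The ratio of NFR1α to NFR5α was 9.06, 8.45 and 17.9 at HP and 4.55, 11.5 and 9.12 at LP, and the treatments overlapped. Tested as the log2 ratio of FPKM + 0.1, the difference had p = 0.40 (exact permutation test). The ratio of NARK to NFR5α was 12.5, 10.4 and 9.91 at HP and 9.76, 16.5 and 15.4 at LP, which overlapped as well. With FPKM + 0.1 the difference had p = 0.30 (exact permutation test). The listed ratios are of plain FPKM, and the added 0.1 is not small beside the level of NFR5α, so these p-values are not those of the listed ratios. Ratios with NFR5α rest on 8 to 13 fragments of that gene per library.

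**Figure D3:**
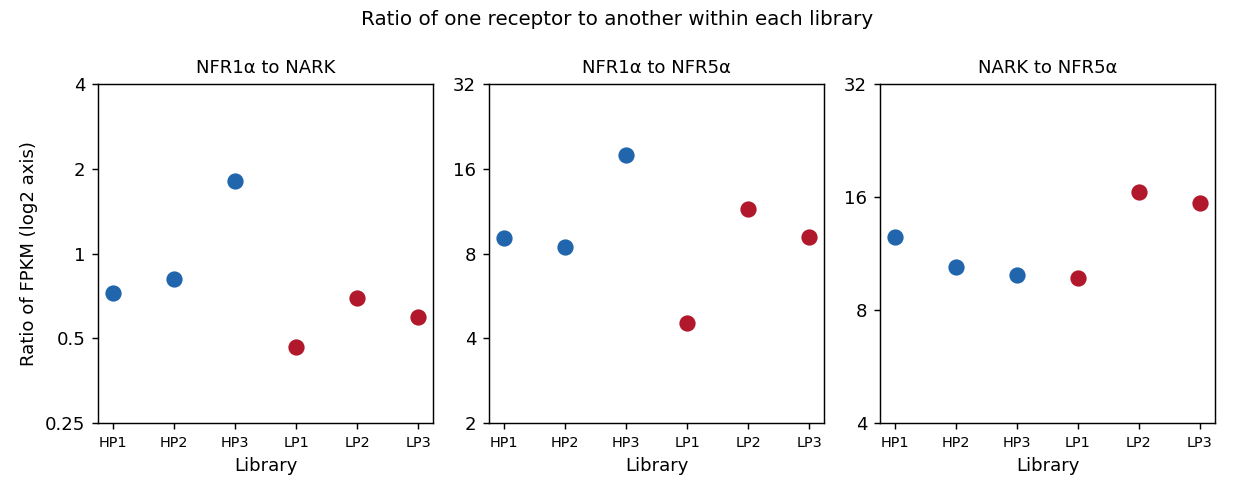
Ratio of FPKM between 2 receptor genes (vertical log2 axis) in each HP (blue) and LP (red) library, 1 point per library. The ratio of NFR1α to NARK is 0.726 to 1.80 at HP and 0.467 to 0.698 at LP, whereas the treatments overlap for both ratios with NFR5α.

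Further genes of receptor and nodulation signalling could be named only where the study gives a protein match, which it does for genes it found to differ on these samples. Their direction is therefore a description and no independent evidence. Of the 4 such genes, 2 were higher at LP in limma, 0 were lower and 2 did not pass. Their median log2 fold change was 1.14, against -0.18 over all genes tested. The median and the count are set by the way these genes came to be named. Neither therefore shows a difference from all genes tested, of which 3.34% were called higher. Of the 2 called, Glyma.13G081700 also reached the minimum of 0.5 FPKM only through its LP libraries.

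The largest of these changes was that of Glyma.15G111300, matched to a chitin elicitor receptor kinase 1, a LysM receptor class that in Arabidopsis perceives fungal chitin. It was at 6.39, 5.47 and 5.68 FPKM in the HP libraries and at 24.0, 24.2 and 23.4 FPKM in the LP libraries, with no overlap. On the log2 scale the rise was 2.01 (SE 0.10, limma adjusted p = 1.92e-05). Glyma.02G000400, matched to LysM domain receptor-like kinase 4, was at 12.8, 12.9 and 11.3 FPKM at HP and 28.6, 24.6 and 21.0 FPKM at LP. Its log2 fold change of 0.99 was just under 2-fold (adjusted p = 0.00194 by limma) and reached it after median-of-ratios rescaling (1.18). Both LysM genes stood above NFR1α in every library.

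Glyma.10G179700, matched to an ion channel POLLUX-like 2, was at 3.8 ± 0.157 FPKM under HP and 7.17 ± 0.551 FPKM under LP (SD, n = 3 each). POLLUX itself is a channel of the nuclear envelope needed for calcium spiking in Lotus. The match is to a POLLUX-like protein and not to POLLUX, and whether Glyma.10G179700 acts in Nod factor signalling was not tested. The log2 fold change of 0.90 was under 2-fold (adjusted p = 0.00180 by limma) and was 1.08 after median-of-ratios rescaling. Glyma.13G081700, matched to NSP2, a GRAS transcription factor of nodulation, rose from 0.223 ± 0.0562 to 0.692 ± 0.125 FPKM (SD, n = 3 each), with 21 fragments at HP and 66 at LP. Its log2 fold change was 1.30 (adjusted p = 0.0212 by limma), and 0.47 and not called with an added constant of 1 FPKM. Glyma.13G081700 reached the minimum of 0.5 FPKM only through its LP libraries, so being tested already required a high LP level. Its call is therefore a description and no evidence of a rise. The call was lost without HP replicate 3 (limma adjusted p = 0.0566), and with any LP library left out the gene was below the minimum.

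**Figure D4:**
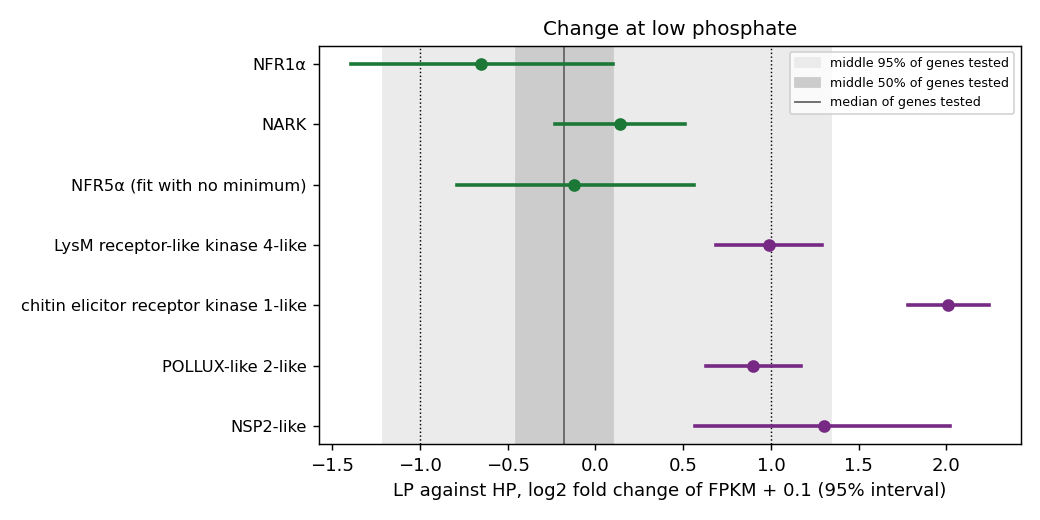
Log2 fold change, LP against HP, of FPKM + 0.1 (horizontal axis) with 95% intervals for the 3 listed receptor kinase genes (green) and the 4 further genes (purple). Grey bands hold the middle 50% and 95% of the genes tested, and dotted lines mark 2-fold. NFR1α (-0.65), NARK (0.14) and NFR5α (-0.12, fit with no minimum) have intervals that include 0. The intervals of the further genes lie above 0. These genes were named from a list of genes that differed on these same samples. Their position follows largely from that choice and is no contrast with the receptors. Glyma.13G081700 also reached the minimum for testing only through its LP libraries.

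Genes with the profile most like that of each receptor were sought among tested genes averaging 1 FPKM or more, as a description over 6 libraries that share 2 treatments. For NFR1α, the closest were Glyma.18G265000, Glyma.17G069800 and Glyma.03G214700 (Pearson r of log2 values 0.9935, 0.9879 and 0.9873). Glyma.18G265000 shared the order of the libraries but not the amplitude, with 8.39, 8.96 and 9.70 FPKM at HP and 7.99, 8.59 and 8.15 FPKM at LP. For NARK they were Glyma.15G121000, Glyma.14G068700 and Glyma.13G260100 (0.9916, 0.9902 and 0.9880), and for NFR5α they were Glyma.06G090100, Glyma.15G102400 and Glyma.06G019200 (0.9856, 0.9847 and 0.9842). None of these 9 genes passed the test at LP. They were picked for their likeness to receptors whose treatments overlapped, so this outcome followed largely from the choice. An r over 0.9 was found for 200 genes with NFR1α and 125 with NARK, of 28141 compared with each, and for 111 of 28142 with NFR5α. Over 6 libraries, unrelated profiles can also reach such an r. No chance level was computed, so the counts do not show that these genes vary together with the receptors.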

How the data were processed

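RNA of 3 HP and 3 LP nodule libraries was analysed. The authors aligned clean reads to the Williams 82 assembly (Wm82.a2.v1) with HISAT2 2.1.0, after indexing the genome with Bowtie2 2.2.3, and deposited FPKM values for each library, listing only genes above 0. A gene without a row was taken as 0. Abundance was estimated with Cufflinks according to the methods of the study, how multiply mapped reads and strand were treated is not given in the sources used here, and the tests of the authors (DESeq2 1.6.3) were not used.

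Totals and whole fragments were derived from the FPKM values alone, as the smallest whole numbers that fit a whole gene length no longer than the gene (tolerance 1e-05 fragments). All 39712 genes had such numbers, which made up 99.7% of the totals and for some genes the true numbers may be a whole multiple of them.

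FPKM values were tested as log2(FPKM + 0.1) with limma 3.58.1 in R 4.3.3 (robust eBayes with a trend, using statmod 1.5.0), two-sided. P-values were adjusted by Benjamini-Hochberg over the 31181 genes that reached 0.5 FPKM in 3 libraries or more. The added 0.1 lowers fold changes of low genes. Thresholds were an adjusted p of 0.05 and 2-fold. Ratios of members, taken as log2 ratios of FPKM + 0.1, were compared by exact permutation. Permutations were run in R. Counting intervals used scipy 1.17.1 and figures matplotlib 3.10.9, with pandas 2.3.3 and numpy 2.4.6 under Python 3.11.15. The code was tested on simulated data.

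The members and lists were chosen with earlier results of these data known. Named genes were the members, the further signalling genes that were called or highest in their role, and the 3 genes of most similar profile for each member. Alternatives were other added constants (1 and 0.01), no minimum or 1 FPKM, quantile or median-of-ratios scaling, plain eBayes, the replicate number as a block and each library left out. Limma-voom on the fragments was chosen after seeing the data. The RefSeq gene table (Glycine_max_v4.0) matched 0 identifiers of the files, so it named none of the listed genes, and no sequences were used here.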

Additional observations from a re-analysis of the deposited data

How the results depend on the processing

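None of the receptor kinase genes passed the test under any alternative run. For NFR1α the log2 fold change lay between -0.92 and -0.32, and for NARK between 0.07 and 0.32, both extremes coming from left-out libraries except the highest for NARK (median-of-ratios). Their adjusted p from limma ranged from 0.0892 to 0.429 and from 0.19 to 0.828. NFR5α, at -0.12, lay between -0.29 and 0.02. The difference between NFR1α and NARK lay between -1.02 and -0.39, that between NFR1α and NFR5α between -0.78 and -0.20, and that between NARK and NFR5α between 0.13 and 0.43. NFR1β had no value under any setting. NFR5α was not run with quantile normalization, a minimum of 1 FPKM, eBayes without trend and robust, or limma-voom.

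Over all genes, 2411 were called. An added constant of 1 FPKM gave 1353, and leaving out a library gave 1876 to 2336. Higher calls made up 43.2% of these, 67.5% after median-of-ratios rescaling (a shift of 0.182), 61.7% after quantile normalization (0.13) and 55.5% with the constant of 1. Of the 4 further signalling genes, 2 were called. This count was 1 with the constant of 1 or a minimum of 1 FPKM, 4 under both rescalings, and 1 to 3 without a library.

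With the replicate number as a block, 2334 genes were called, the log2 fold changes of NFR1α and NARK were -0.65 and 0.14, and no call of a named receptor changed. Libraries with the same number did not deviate together (r of 0.17, -0.02 and -0.153), so the numbers were not taken as pairs. For NFR5α, the 8 to 13 fragments per library limit the precision.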

Other observations

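Each listed receptor gene had a listed neighbour within 1743 bases, and none overlapped another listed gene. Glyma.02G270700, on the same strand 1743 bases before NFR1α, was at 2.57, 3.15 and 3.86 FPKM at HP and 2.94, 2.99 and 2.92 FPKM at LP, so HP replicate 3 was its highest library too. Glyma.11G063000, 918 bases before NFR5α on the same strand, was at 0.514, 0.688 and 1.18 FPKM at HP and 0.654, 0.477 and 0.455 FPKM at LP, again highest in HP replicate 3. Glyma.12G039900 ends 1268 bases from the 3′ end of NARK on the other strand. It was at 35.7, 43.9 and 35.0 FPKM at HP and 23.4, 20.2 and 21.7 FPKM at LP, with no overlap between treatments, whereas the NARK libraries overlapped. Such a lack of overlap was found for 44.5% of the genes tested. The log2 fold change of Glyma.12G039900, -0.80, was under 2-fold, so it was not called.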
